A study of Mus musculus with 12 samples.

Results

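Genes that dampen or report signaling through the kinase ERK were followed in mouse airway organoids after laser damage. The 10 genes were taken by name from the 55401 genes of the deposited expression table: the dual specificity phosphatase genes Dusp4, Dusp5 and Dusp6, the Sprouty genes Spry1, Spry2 and Spry4, the Spred genes Spred1 and Spred2, and the ETS transcription factor genes Etv4 and Etv5. All 10 were found, and all 10 passed the minimum of 10 normalized counts in at least 6 dishes that left 13792 genes for testing. The rule names genes and holds no threshold on measured values, but it was set with earlier results of these data known.

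ERK is the last kinase of the cascade that runs from receptor tyrosine kinases through Ras, Raf and MEK, and in epithelium it is a main route by which EGF and FGF signals reach the nucleus. Active ERK induces genes whose products switch the cascade off again. Dusp4, Dusp5 and Dusp6 encode phosphatases that remove the activating phosphates of ERK, with Dusp4 and Dusp5 protein in the nucleus and Dusp6 protein in the cytoplasm, while Sprouty and Spred proteins act upstream between the receptor and Raf. Etv4 and Etv5 are transcription factors induced downstream of FGF receptors and ERK, and in the developing lung they are known as FGF targets. The mRNA levels of such genes are often read as a report of recent ERK activity, but ERK itself was not measured here.

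The organoids were grown from airway epithelial cells of adult C57BL/6J wild-type mouse lungs, and all carried a lentiviral vector for a Histone2A-mCherry fusion protein under the p63 promoter, which is active in basal cells. Until the experiment they grew in medium with 50% L-WRN supernatant, N2, B27, epidermal growth factor at 50 ng/μL (as the labels give it) and 10 μM of the ROCK inhibitor Y-27632. In both groups unsupplemented Fluorobrite DMEM replaced this medium 1 h before treatment. A femtosecond laser then ablated 10 neighboring cells in each of 45 organoids per dish (ablation, 6 dishes), or no cells were ablated (control, 6 dishes), and dishes were harvested 4.5 h later. Dishes with the same number (1, 3, 4, 5, 6 and 7) share their passage and culture day and form 6 pairs, at passages P2+14 to P2+16 and culture days 14 to 20. Pairs 1, 3 and 5 carry one run of library numbers and pairs 4, 6 and 7 another. They are called library sets 1 and 2, and what separates the sets was not stated. The titles of controls 4, 6 and 7, all of library set 2, carry the word ablation, against a treatment label of control. The treatment label was followed, and for the 10 genes values from set 1 alone are given where a result rests on set 2. Further genes and lists are given over both sets together, so whether their results rest on set 2 was not examined. The number of mice behind the cultures is not given, so p-values measure the spread between dishes. Where pairs are fitted, p-values measure the spread of the differences within pairs.

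Normalized counts summed to between 27297950 and 28504390 per library, and whole reads recovered for 9 of the 12 libraries summed to between 23631212 and 29775699. All 6 basal cell markers passed the count minimum, with summed levels between 477400 and 618500 normalized counts after ablation and between 474000 and 600000 in the control. Of the secretory markers 4 of 5 passed and of the ciliated markers 2 of 5, with Cyp2f2 at a mean of 49000 normalized counts and Krt8 at 25970, but Scgb1a1, which defines club cells, at 3.30. Of the alveolar type 2 markers 1 of 5 passed, Abca3 at 1125 normalized counts, and the defining genes Sftpc and Sftpb were at 0 in every library. Of the fibroblast markers 1 of 6 passed, of the immune markers 3 of 5 and of the endothelial markers 0 of 4. Each value is a mean over all cells of a dish, ablated patches and intact epithelium alike. In such bulk samples, fewer cells of a type and less RNA per cell cannot be told apart.

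The 10 genes lie on 9 chromosomes of GRCm38.p6. Dusp4 (ENSMUSG00000031530.6) lies at chr8:34807297-34819894, Dusp5 (ENSMUSG00000034765.6) at chr19:53529109-53542431 and Dusp6 (ENSMUSG00000019960.8) at chr10:99263231-99267489, all on the plus strand. Spry1 (ENSMUSG00000037211.12) lies at chr3:37639947-37644598 on the plus strand, Spry2 (ENSMUSG00000022114.5) at chr14:105891947-105896819 on the minus strand and Spry4 (ENSMUSG00000024427.7) at chr18:38586247-38601415 on the minus strand. Spred1 (ENSMUSG00000027351.14) lies at chr2:117121374-117182279 and Spred2 (ENSMUSG00000045671.17) at chr11:19924375-20024026, both on the plus strand. Etv4 (ENSMUSG00000017724.14), at chr11:101769742-101785371, and Etv5 (ENSMUSG00000013089.15), at chr16:22381309-22439719, lie on the minus strand. Exons of Dusp5 overlap those of the antisense gene AC137853.2, and exons of Spry1 overlap those of Gm42922 on the opposite strand. Libraries were stranded, but whether strand was used in counting was not stated, so reads of these partners may be shared.

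RefSeq promoter windows of 300 bases, 250 before the start site and 50 from it on, were at hand for 7 of the 10 genes, in 8 windows. Of these, 4 are shown because their genes take different courses in the results: Dusp5 varied most between control dishes, Dusp6 had the lowest p for a difference between the library sets, Spred2 was close to level, and Spry2 was lower in most pairs. Each is written 5′ to 3′ on the strand of its gene, with matches to searched motifs in capitals. The motifs, searched on both strands, were the ETS core in the forms CGGAAG and AGGAAG, the AP-1 site TGANTCA, the CRE TGACGTCA and the CArG box bound by serum response factor.

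Dusp5, chr19:53528895-53529194, plus strand: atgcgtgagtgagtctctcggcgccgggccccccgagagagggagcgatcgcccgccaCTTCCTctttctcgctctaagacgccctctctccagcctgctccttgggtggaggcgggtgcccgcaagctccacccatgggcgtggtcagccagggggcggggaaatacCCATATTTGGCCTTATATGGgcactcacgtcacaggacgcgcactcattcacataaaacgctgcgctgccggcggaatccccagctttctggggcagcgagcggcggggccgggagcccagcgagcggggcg

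Dusp6, chr10:99262981-99263280, plus strand: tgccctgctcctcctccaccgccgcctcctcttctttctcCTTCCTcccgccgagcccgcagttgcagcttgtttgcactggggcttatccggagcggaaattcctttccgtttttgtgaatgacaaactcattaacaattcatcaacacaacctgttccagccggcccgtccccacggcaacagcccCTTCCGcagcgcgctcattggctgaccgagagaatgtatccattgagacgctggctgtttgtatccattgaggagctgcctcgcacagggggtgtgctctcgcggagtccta

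Spred2, chr11:19924192-19924491, plus strand: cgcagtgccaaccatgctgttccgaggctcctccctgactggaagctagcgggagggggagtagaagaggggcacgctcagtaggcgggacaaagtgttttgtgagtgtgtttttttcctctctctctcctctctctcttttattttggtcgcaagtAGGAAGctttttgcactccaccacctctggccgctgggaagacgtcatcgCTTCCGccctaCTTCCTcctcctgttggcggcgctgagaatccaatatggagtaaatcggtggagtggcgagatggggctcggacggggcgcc

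Spry2, chr14:105896770-105897069, minus strand: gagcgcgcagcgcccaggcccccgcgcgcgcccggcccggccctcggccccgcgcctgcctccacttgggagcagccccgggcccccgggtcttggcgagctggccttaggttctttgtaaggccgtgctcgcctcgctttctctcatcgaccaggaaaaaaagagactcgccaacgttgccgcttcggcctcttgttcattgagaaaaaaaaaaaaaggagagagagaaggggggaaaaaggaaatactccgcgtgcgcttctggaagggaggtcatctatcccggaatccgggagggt

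The Dusp5 window holds a pair of CArG boxes beginning at -82 and -72 from the start and AGGAAG on the other strand at -192. It was the single window of the 8 with a CArG box, which 1.63% of all 32851 promoter windows hold. CGGAAG was found in 3 of the 8 windows against 16.9% of all windows: in Dusp6 at -62, in Spred2 at -43, and in Spred1 at -17 and 8. AGGAAG was found in 4 of the 8 windows, those of Dusp5, Dusp6, Spred2 and the second Etv5 window, against 35.4% of all. TGANTCA and TGACGTCA were found in 0 of the 8 windows, against 7.81% and 1.79% of all windows. The Spry2 window held no searched motif. A match is a match of letters, and binding was not measured.

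Per length of exon, Dusp6 was the most abundant of the 10 mRNAs, and Spry4 the least. Dusp6 reached 784 ± 205 normalized counts per kb (SD over 12 dishes) and lay above 86.1% of the tested genes. Spred1 followed at 349 ± 35.4 per kb and Spred2 at 283 ± 40.1 per kb, in this order in 12 of 12 dishes. Spry2 (210 ± 22 per kb), Dusp4 (183 ± 69.4 per kb) and Etv5 (182 ± 78.7 per kb) lay near the middle of all tested genes, and their order changed between dishes, with Spry2 above Dusp4 in 8 of 12 and Dusp4 above Etv5 in 8 of 12. Etv4 (127 ± 37.0 per kb), Spry1 (107 ± 21.2 per kb) and Dusp5 (105 ± 35.4 per kb) came next. Spry1 exceeded Dusp5 in 6 of 12 dishes, so this order is not beyond the spread. Spry4 had 15.8 ± 5.84 per kb, below each of the others in all 12 dishes, and lay above 13.3% of the tested genes. No dish lacked any of the 10 mRNAs.

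The main question was whether these mRNAs differed 4.5 h after laser damage, the single time of harvest. Changes that came and went earlier were not measured. Values were compared on the log2 scale (normalized counts plus 1) with limma, with the library set as a second factor (the unpaired model) and Benjamini-Hochberg adjustment over all 13792 genes, and again with the pair in place of the set (the paired model). Unpaired, 0 of the 10 genes were called at an adjusted p under 0.05, where 0% of all tested genes were called. At an unadjusted p under 0.05 it was 1 of the 10, Spry2, against 7.85% of all tested genes. In the paired model 1 of the 10 was called, Dusp4, against 1.09% of all tested genes (0.674% called higher). Unadjusted, 3 of the 10 passed in the paired model, Dusp4 and Dusp5 higher and Spry2 lower, against 17.6% of all tested genes. On average 7 of the 10 were higher after ablation, where 48.5% of all tested genes were, and their median log2 difference was 0.08 against a median of -0.0036 over all genes. Without pair 3 it was 8 of 10 with a median of 0.14, without pair 5 7 of 10 with 0.14, without pair 6 6 of 10 with 0.03 and without pair 7 5 of 10 with 0.04. The control and ablation values overlapped for each of the 10 genes, but the share of all tested genes with such overlap was not counted.

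**Figure D1:**
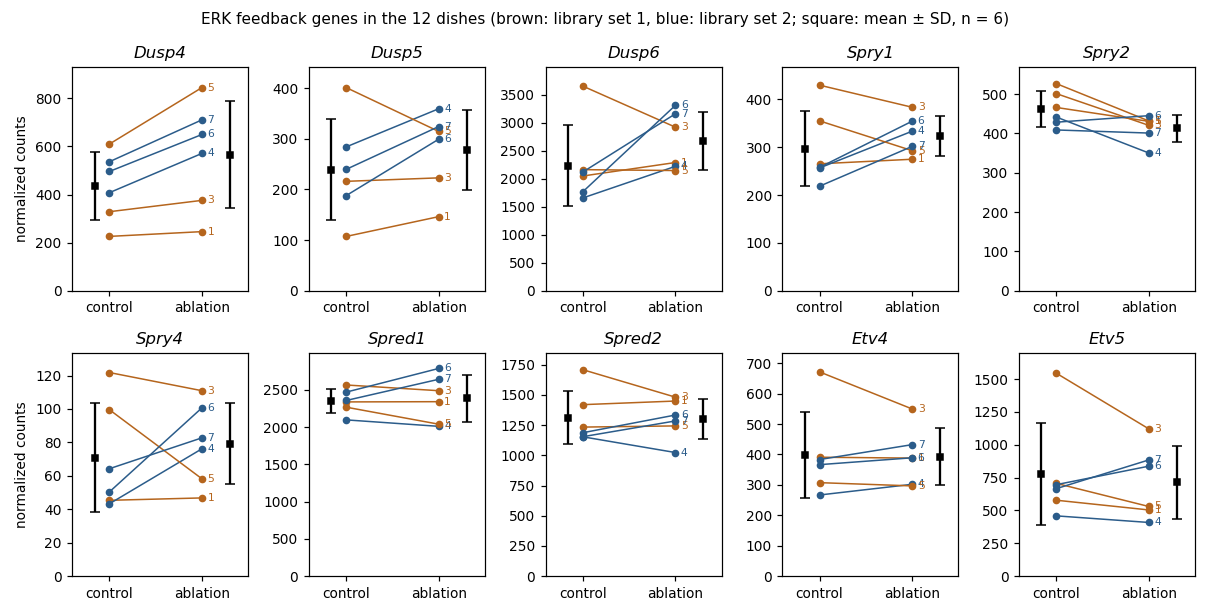
Normalized counts of the 10 ERK feedback genes in each control and ablation dish, with lines joining the dishes of a pair, pair numbers at the right, brown for library set 1 and blue for set 2, and squares with bars for mean ± SD (n = 6). Lines of Dusp4 rise in 6 of 6 pairs, while those of Spred1, Spred2 and Etv4 run close to level.

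Dusp4, whose product is a nuclear phosphatase of ERK and other MAP kinases, was higher after ablation in all 6 pairs. Its control dishes ranged from 226 to 610 normalized counts (median 452) and its ablation dishes from 246 to 845 (median 610). In order of pairs 1, 3, 4, 5, 6 and 7, the control dishes held 226, 329, 408, 610, 496 and 536 normalized counts, and the ablation dishes 246, 376, 571, 845, 650 and 711. Dishes of pair 1 were lowest and dishes of pair 5 highest in both groups, so the spread between pairs was larger than the step within a pair. The log2 differences of the pairs were 0.12, 0.19, 0.49, 0.47, 0.39 and 0.41. The mean log2 difference was 0.34, with a standard error of 0.27 unpaired (adjusted p = 0.788 from limma) and of 0.064 paired (adjusted p = 0.0244 from limma). The paired call was lost without any of pairs 4 to 7: limma's adjusted p was 0.111 without pair 4, 0.0868 without pair 5, 0.0538 without pair 6 and 0.0611 without pair 7. It was also lost with limma's plain variance moderation (adjusted p = 0.123) and in edgeR's quasi-likelihood test on recovered reads of 4 pairs (adjusted p = 0.119).

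Dusp5, the other nuclear phosphatase of the family and one that acts on ERK in particular, was higher in 5 of 6 pairs. Its control dishes ranged from 107 to 401 normalized counts (median 228) and its ablation dishes from 146 to 359 (median 307). The pair differences on the log2 scale were 0.45, 0.05, 0.34, -0.35, 0.67 and 0.44 for pairs 1, 3, 4, 5, 6 and 7. Pair 5, whose control dish held the highest value of all, was the exception. The mean log2 difference was 0.26, with an adjusted p of 0.841 unpaired and of 0.253 paired (limma), and the paired 95% interval ran from 0.02 to 0.51.

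Dusp6, the cytoplasmic phosphatase, was higher in 4 of 6 pairs. Its control dishes ranged from 1658 to 3656 normalized counts (median 2085) and its ablation dishes from 2148 to 3313 (median 2607). The highest of all 12 values stood in control 3, and the lowest in control 4. The log2 differences of pairs 1, 3, 4, 5, 6 and 7 were 0.16, -0.32, 0.42, -0.01, 0.91 and 0.58. Their mean of 0.29 had an adjusted p of 0.717 unpaired and of 0.406 paired (limma). The paired 95% interval, from -0.10 to 0.67, includes 0. The mean was 0.17 without pair 6 and 0.41 without pair 3.

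Among the Sprouty genes, Spry2 had a mean difference below 0 and Spry1 and Spry4 above 0, and none was called. Spry2 held 409 to 527 normalized counts in control dishes (median 454) and 350 to 445 in ablation dishes (median 426), and was lower in 5 of 6 pairs. Its mean log2 difference was -0.16, with an unadjusted p of 0.0351 unpaired and of 0.0302 paired (limma, adjusted p = 0.621 and 0.230). It had the smallest spread of the 3 Sprouty genes, and the exception was pair 6 with a log2 difference of 0.06. Spry1 held 219 to 430 normalized counts in control dishes (median 262) and 275 to 384 in ablation dishes (median 318). Of its pairs 4 of 6 were higher, at a mean log2 difference of 0.15 (limma, adjusted p = 0.820 unpaired and 0.475 paired). Spry4, at 43.3 to 121.8 normalized counts in control dishes (median 57.3) and 46.8 to 110.9 in ablation dishes (median 79.5), was also higher in 4 of 6 pairs. Its pairs ran from a log2 difference of -0.76 in pair 5 to 0.99 in pair 6, the widest range of the 10 genes, around a mean of 0.22 (limma, adjusted p = 0.876 and 0.611). Without pair 6 this mean was 0.06 and without pair 5 it was 0.41, and that of Spry1 was 0.09 without pair 7 and 0.24 without pair 5.

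The Spred genes, whose membrane-bound products restrain Ras and Raf, were close to level. Spred1 held 2096 to 2564 normalized counts in control dishes (median 2346) and 2009 to 2785 in ablation dishes (median 2413), with 3 pairs higher and 3 lower. Its mean log2 difference of 0.01 had a paired 95% interval from -0.09 to 0.12 (limma, adjusted p = 0.983 unpaired and 0.910 paired). Spred2 held 1153 to 1709 normalized counts in control dishes (median 1211) and 1023 to 1482 in ablation dishes (median 1309), with 4 pairs higher and 2 lower. Its mean log2 difference of -0.0025 had a paired 95% interval from -0.12 to 0.12 (limma, adjusted p = 0.997 and 0.988). These are the narrowest intervals of the 10 genes.

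The ETS factor genes had means near 0, and their pair differences shared a sign in 5 of 6 pairs. Etv4 held 267 to 671 normalized counts in control dishes (median 375) and 297 to 550 in ablation dishes (median 389), with 3 pairs higher and 3 lower. Its mean log2 difference was 0.01 (limma, adjusted p = 0.995 unpaired and 0.944 paired, paired 95% interval from -0.14 to 0.17). Etv5 held 459 to 1545 normalized counts in control dishes (median 681) and 409 to 1121 in ablation dishes (median 684), and was lower in 4 of 6 pairs. Its mean log2 difference was -0.09 (limma, adjusted p = 0.960 and 0.705), with a paired 95% interval from -0.35 to 0.16. That mean was -0.02 without pair 3 and -0.19 without pair 7. The dishes of pair 3 were highest for both genes in both groups.

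**Figure D2:**
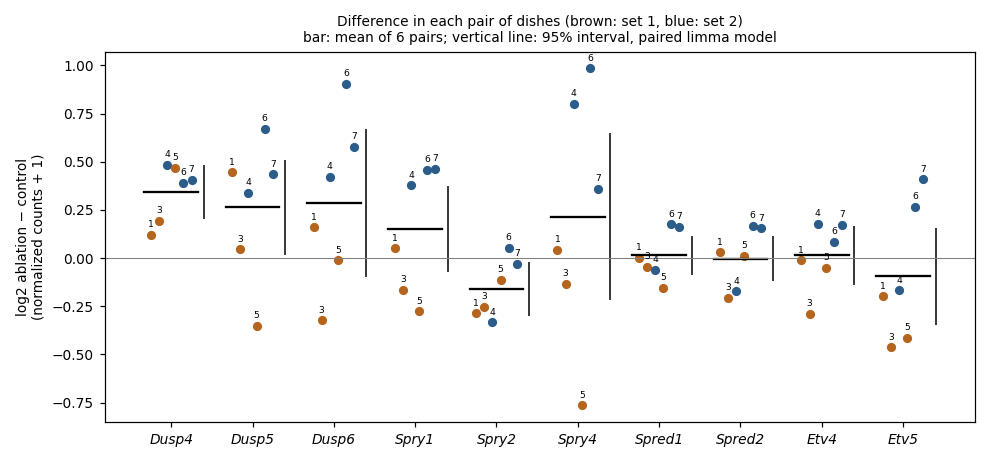
Log2 difference between the ablation and control dish of each pair (points with pair numbers, brown for library set 1 and blue for set 2), with the mean of 6 pairs as a bar and the 95% interval of the paired limma model as a vertical line. The 6 points of Dusp4 lie between 0.12 and 0.49, while those of Spry4 run from -0.76 to 0.99.

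The number of the 10 genes that were higher after ablation varied between pairs. In pair 6, 10 of the 10 were higher after ablation and in pair 7, 9 of 10, with median log2 differences of 0.33 and 0.38. In pair 4 it was 6 of 10, with a median of 0.26. In pairs 3 and 5 only 2 of 10 were higher, with medians of -0.19 and -0.13, and in pair 1 it was 7 of 10 with a median of 0.04. Over all tested genes, 48.1% to 52.7% were higher in each pair, and the medians lay between -0.010 and 0.010. The 3 highest medians were those of library set 2, pairs 4, 6 and 7. Fitted within set 1 alone, which leaves out the controls with conflicting titles, 2 of the 10 genes were higher on average, with a median log2 difference of -0.09, and 0 were called in the paired model, against 9 higher, a median of 0.30 and 2 called (Dusp4 and Dusp6) within set 2 alone. The calls over all tested genes were 16 (0.116%) within set 1 and 109 (0.790%) within set 2.

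The question of whether the response to ablation differed between the library sets was put to an interaction model with the pair as a term. In this model 0 of the 10 genes were called at an adjusted p under 0.05, against 0.00725% of all tested genes. At an unadjusted p under 0.05, 5 of the 10 passed, Dusp5, Dusp6, Spry1, Spry4 and Etv5, against 7.88% of all tested genes. All 5 were higher in set 2 than in set 1, and they were measured in the same 12 dishes. Without the pair as a term 2 of the 10 passed unadjusted, Dusp6 and Spry1, against 1.67% of all tested genes. The lowest adjusted p of the 10 was 0.297, for Dusp6, so no single gene was shown to respond differently.

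Dusp6 had a log2 response of -0.06 in set 1 and of 0.63 in set 2, a difference of 0.69 with a standard error of 0.14 (limma, unadjusted p = 0.000815). Fitted within set 2 alone, Dusp6 was called (limma, adjusted p = 0.0159, 95% interval from 0.44 to 0.83), while in set 1 alone its adjusted p was 0.803. Spry4 had the largest difference of the 10, 1.00, from -0.28 in set 1 to 0.72 in set 2, with a standard error of 0.28 (limma, unadjusted p = 0.00361, adjusted p = 0.439). Spry1 went from -0.13 to 0.43 (limma, unadjusted p = 0.00135, adjusted p = 0.358) and Dusp5 from 0.05 to 0.48 (limma, unadjusted p = 0.0461, adjusted p = 0.630). Etv5 was lower in all 3 pairs of set 1, with a log2 response of -0.36 against 0.17 in set 2 (limma, unadjusted p = 0.00298, adjusted p = 0.419).

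Dusp4 was higher in all 3 pairs of set 1, as were 17.9% of all tested genes, and in all 3 pairs of set 2, as were 17.5%. Higher in all 6 pairs were 5.17% of all tested genes against Dusp4 of the 10, and lower in all 6 were 4.63%, against 0 of the 10. The response of Dusp4 was 0.26 in set 1 (limma, adjusted p = 0.295) and 0.43 in set 2 (limma, adjusted p = 0.0329), and the difference of 0.17 had an adjusted p of 0.770. Besides Dusp4, the genes higher in all 3 pairs of set 2 were Dusp5, Dusp6, Spry1, Spry4 and Etv4, 6 of the 10 in all. Lower in all 3 pairs of set 1 were Spry2, Etv4 and Etv5, a pattern shown by 19.6% of all tested genes. Etv4 thus had all 3 pairs of each set on opposite sides of 0, with a difference of 0.26 that did not pass (limma, unadjusted p = 0.0581, adjusted p = 0.639). In set 1 its log2 differences were -0.01 in pair 1 and -0.05 in pair 5, both near 0, and -0.29 in pair 3. The conflicting titles fall on the 3 controls of set 2, and passages overlap between the sets at P2+15 alone, so library set, passage and titles are entangled, and their parts in these differences cannot be told apart.

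**Figure D3:**
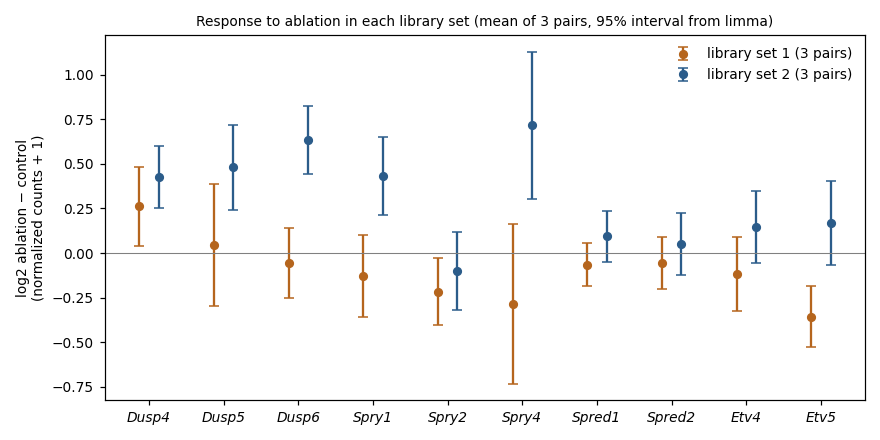
Log2 response to ablation of each gene in library set 1 (brown, pairs 1, 3 and 5) and library set 2 (blue, pairs 4, 6 and 7), as the mean of 3 pairs with the 95% interval of a limma fit within the set. Dusp6, Spry1 and Spry4 lie below 0 in set 1 and above 0 in set 2, while Dusp4 lies above 0 and Spry2 below 0 in both.

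Several of these genes varied widely between untreated dishes. Over the 6 control dishes, the SD of the log2 values was 0.634 for Dusp5, 0.615 for Spry4, 0.591 for Etv5 and 0.527 for Dusp4, which put these 4 genes in the upper 10% of all tested genes (median 0.157). Etv4, at 0.453, lay above 89.9% of tested genes, Dusp6, at 0.403, above 87.0% and Spry1, at 0.360, above 83.7%. Spred2, at 0.225, lay above 67.0%, Spry2, at 0.139, above 43.6% and Spred1, at 0.101, above 27.0%. The highest control value exceeded the lowest 3.74-fold for Dusp5, 3.37-fold for Etv5 and 2.70-fold for Dusp4, but 1.29-fold for Spry2 and 1.22-fold for Spred1.

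Control 3 was the highest control for 7 of the 10 genes, Dusp6, Spry1, Spry4, Spred1, Spred2, Etv4 and Etv5. For Etv5 it held 1545 normalized counts where the next control held 706. Its ablation partner was also the highest ablation dish for 5 of these genes (Spry1, Spry4, Spred2, Etv4 and Etv5). The share of all tested genes for which these dishes were highest was not counted. Pair 3 had the oldest cultures, at day 20. Its dishes had the lowest secretory marker sums of their groups, 55110 normalized counts in control 3 and 52720 in ablation 3, against 71210 to 90020 in the other controls, and the highest basal marker sums, 600000 and 618500. The part of cell makeup and culture age in the levels of pair 3 was not tested. Dusp4 and Dusp5 did not follow this order. Their control 1 was lowest, with 226 and 107 normalized counts, and their control 5 highest, with 610 and 401.

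Over all 12 dishes, once the mean of each library set was removed, several of the 10 genes varied together. Values of Etv4 and Etv5 rose and fell together (Pearson r = 0.88, Spearman rho = 0.85, and r = 0.75 without pair 3), as did Spry1 and Spry4 (r = 0.87, rho = 0.83, and 0.81 without pair 3), Spred1 and Spred2 (r = 0.85, rho = 0.94, and 0.86 without pair 3) and Dusp4 and Dusp5 (r = 0.83, rho = 0.87, and 0.84 without pair 3). Dusp6 had r = 0.81 with Spry4 and 0.77 with Etv5, but 0.16 with Dusp4 and 0.21 with Dusp5, the other phosphatase genes. Dusp4 and Dusp5 had r between -0.39 and 0.06 with Etv4, Etv5, Spred1 and Spred2. With the Sprouty genes Spry1 and Spry4, Dusp5 had r = 0.51 and 0.56 (0.61 and 0.67 without pair 3) and Dusp4 0.27 and 0.40. Spry1 and Spry4 each had r = 0.36 with Spred2, and 0.36 and 0.49 with Spred1. With Etv4 they had 0.45 and 0.57, and with Etv5 0.59 and 0.75 (0.33 and 0.60 without pair 3). Of the 45 pairs of genes, 15 had an r above 0.7 and 11 an r below 0. The shares among pairs of all tested genes were not counted, so these counts do not set the 10 genes apart. The points are 12 dishes of 6 cultures and share their libraries and scaling, so these values are descriptive. Several rest in part on pair 3, such as Spry1 with Etv4 (r = 0.45, and 0.07 without pair 3).

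**Figure D4:**
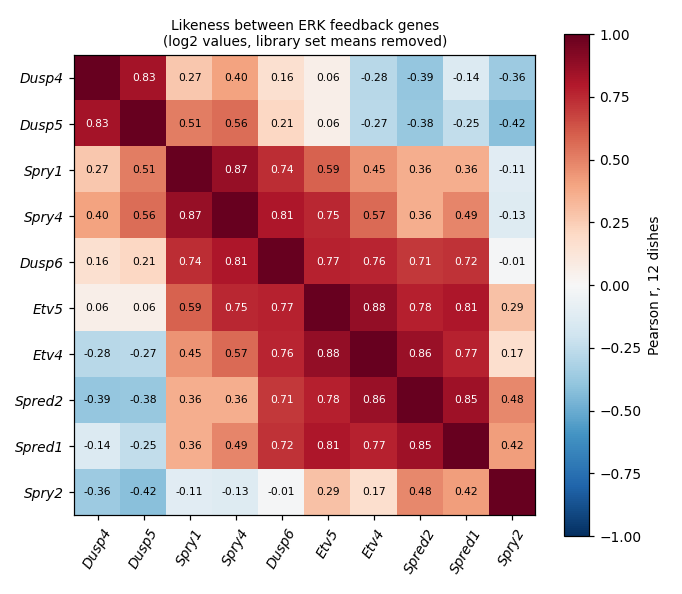
Pearson r of the log2 values of each pair of the 10 genes over 12 dishes, after the means of the library sets were removed, from blue for negative to red for positive. Dusp4 and Dusp5 go together (0.83) and have low or negative r with a block of Dusp6, Etv5, Etv4, Spred2 and Spred1, in which r lies between 0.71 and 0.88.

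Among all tested genes, those most like Dusp4 over the 12 dishes were Sox9 (r = 0.95), Golm1 (0.94) and Ccdc174 (0.93). For Dusp5 they were Hbegf (0.95), Trim16 (0.95) and Epha2 (0.94), and for Dusp6 they were N4bp3 (0.97), Nr4a1 (0.92) and Egr1 (0.91). Etv5 was most like Akap1 (0.97), Ccnd1 (0.97) and Lrrc47 (0.96), and Etv4 most like Ptprz1, Gm10146 and Arntl2 (all 0.92). For Spry1 the genes were Sars2 (0.96), Nol8 (0.94) and Med27 (0.92), for Spry2 Cyp4f40 (0.96), Ralgapa1 (0.94) and Brd3 (0.92), and for Spry4 Timm10 (0.93), Cbll1 (0.91) and Mtg1 (0.91). Spred1 was most like Polg (0.94), Lypla2 (0.89) and Arhgap10 (0.89), and Spred2 most like Polr3g (0.95), Cand1 (0.95) and Ncln (0.94). Each is a maximum over all tested genes and is given as a description. None of the 10 had another of the 10 among its 3 closest genes.

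Relatives in the same gene families lay on both sides of 0. Of the 9 relatives tested 4 were higher and 5 lower, with a median log2 difference of -0.07, and Spry3 was not analysed here. Unpaired, 0 of the 9 were called (0% of all tested genes), and paired 1, Dusp16 (1.09% of all tested genes). Dusp16, whose product acts mainly on JNK and p38, held 1771 to 3030 normalized counts in control dishes (median 2364) and 2568 to 3689 in ablation dishes (median 3057). All 6 pairs were higher, at a mean log2 difference of 0.35 (limma, adjusted p = 0.545 unpaired and 0.0241 paired). Dusp1 and Dusp10, which also act on the stress kinases, were higher in 6 of 6 pairs as well, as were 5.17% of all tested genes. Dusp1 and Dusp10 had log2 differences of 0.27 and 0.32, and neither passed the paired threshold (limma, adjusted p = 0.0626 and 0.0919). Dusp8 had a log2 difference of 0.35, with a paired adjusted p of 0.211 from limma. Dusp7, a cytoplasmic relative of Dusp6, had -0.07, Dusp9 -0.40, Dusp2 -0.38, Spred3 -0.16 and Etv1 -0.20, with limma's paired adjusted p from 0.198 to 0.785.

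The list of the cascade itself, which also holds Rps6ka and Elk genes for substrates of ERK, was close to level. Of its 24 genes, among them the adaptor genes Grb2 and Shc1, 9 were higher and 15 lower, where 48.5% of all tested genes were higher. Their median log2 difference was -0.02, and 0 were called in either model (0% of all tested genes unpaired and 1.09% paired). Unadjusted, 3 of the 24 passed in the paired model, where 17.6% of all tested genes did: Elk4 at 0.15, Rps6ka1 at -0.15 and Ksr1 at -0.17. Of 10 tested genes for EGFR ligands and receptors, 8 were higher, with a median of 0.17, against 48.5% of all tested genes. Of these 10, 0 were called in either model, against the same 0% and 1.09% of all tested genes. The ligand genes Epgn (0.55) and Hbegf (0.31) were higher in 6 of 6 pairs, as were 5.17% of all tested genes, and Areg (0.51) and Ereg (0.47) in 4 of 6. In limma's paired fit their adjusted p was 0.0688 for Epgn, 0.0809 for Hbegf, 0.389 for Areg and 0.290 for Ereg. Epgn was low, at 35.2 to 80.7 normalized counts per dish. The ligand genes Btc (-0.12) and Tgfa (-0.02) were lower, and Egf (0.26) was higher. The receptor genes Egfr (0.08), Erbb2 (0.02) and Erbb3 (0.01) were close to level. Of the FGF receptor and ligand genes 5 of 9 were tested, with a median of -0.0030. In either model 0 of them were called, against 0% and 1.09% of all tested genes. Fgf10 and Fgfr4 were at 0 in every library, and Fgfr2, the receptor through which FGF10 acts on lung epithelium, held 1946 to 4409 normalized counts.

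Other genes known to be induced by ERK were higher in 11 of 12 cases, with a median log2 difference of 0.20, against 48.5% of all tested genes. Like the other lists, this one was chosen with earlier results of these data known and was not examined within set 1 alone. Of these 12, 0 were called unpaired (0% of all tested genes) and 1 paired (1.09% of all tested genes), the early response gene Ier3, with 581 to 1150 normalized counts in control dishes (median 834) and 675 to 1354 in ablation dishes (median 1125). Ier3 rose in each of the 6 pairs, by 0.33 on the log2 scale (limma, adjusted p = 0.690 unpaired and 0.0127 paired). At an unadjusted p under 0.05, Ier3, Epha2 (0.19), Myc (0.18) and Phlda1 (0.38) passed in the paired model, 4 of the 12 against 17.6% of all tested genes. Fosl1, with 0.57, had the largest difference of the list and a paired adjusted p of 0.369 (limma), and Ccnd1, at -0.06, was the one that was lower. Of the 6 basal markers 1 was called in the paired model: Trp63, which encodes the basal cell factor p63, had a log2 difference of 0.39 (limma, adjusted p = 0.187 unpaired and 0.00825 paired), while Itga6 had 0.14, Krt14 0.05, Krt5 0.02, Ngfr -0.11 and Pdpn -0.18, none of them called. Of the tested secretory markers 1 of 4 was higher (median -0.18), of the ciliated markers 0 of 2 (median -0.14) and of the immune markers 0 of 3 (median -0.23), with 0 called in either model. The part of these markers in the values of Dusp4, Dusp16 and Ier3 was not tested.

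**Figure D5:**
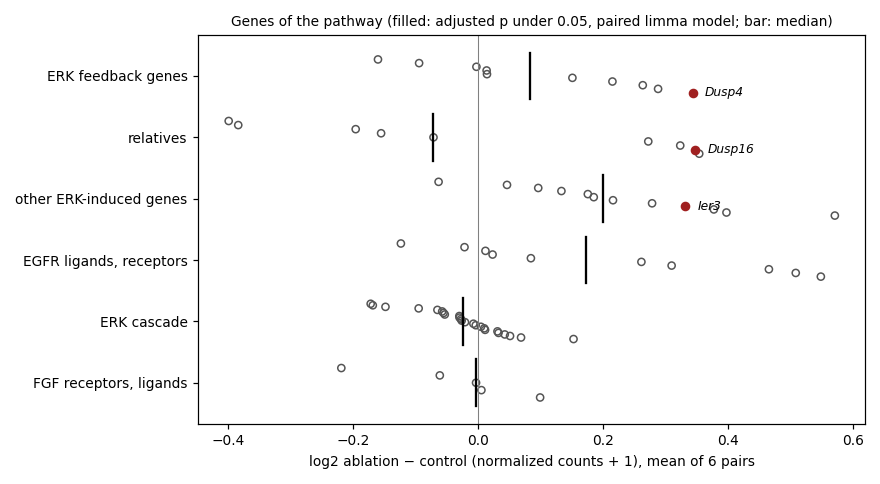
Mean log2 difference of 6 pairs for each tested gene of the 10 ERK feedback genes and of 5 further lists of the pathway, with the median of each list as a bar and genes called in the paired limma model as filled points. The called genes are Dusp4, Dusp16 and Ier3, all between 0.33 and 0.35, and the cascade genes lie between -0.17 and 0.15.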

How the data were processed

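RNA was sequenced from 12 dishes of airway organoids, 6 after ablation and 6 controls, grouped by their treatment label. Per the paper's methods, poly(A) libraries were stranded and read in paired ends of 75 bases on a NextSeq 550, and the authors processed them with nf-core/rnaseq and the GENCODE annotation of GRCm38.p6. The submitters' processing notes also name bcl2fastq and DESeq2. The signal values used here are the authors' normalized counts, that is, read counts of a library over its DESeq2 size factor. The deposited table also holds log2 fold changes, score columns (standard errors and Wald statistics) and p-values of the authors' own comparison, none of which was used. Gene symbols, coordinates and exon lengths are those of the deposited table and GENCODE M21, in which 54349 of the 55401 gene IDs were found with their version.

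A gene was tested if 6 or more libraries held 10 or more normalized counts. Log2 values (pseudocount 1) were fitted with limma 3.58.1 in R 4.3.3, with condition and library set as terms and eBayes with a variance trend and robust settings. Adjustment followed Benjamini and Hochberg, at a threshold of 0.05. The fit was tested on simulated data. Their noise was drawn independently for each gene and dish, so noise shared between genes was not covered. Fold changes are on the scale of log2 of the value plus 1 and understate those of low genes. Same-numbered dishes share passage and culture day by their titles. Their deviations from the group means correlated with r from 0.205 to 0.618 across genes, against a mean of -0.077 and a highest value of 0.286 (ablation 4 with control 5) for other numbers, which is above the lowest same-number value, that of pair 4. The pairing rests on the titles, so the paired model (replicate block) is given beside the main one. In 9 libraries, values were whole multiples of a step (within 0.1 step) and gave back whole reads, on which edgeR 4.0.16 and DESeq2 1.42.0 were run. In ablation 3, ablation 4 and control 4 the step was too near 1 to be accepted. Depths are those of the recovered reads, and they limit counting error only. Promoter windows are those of RefSeq for GRCm38.p6. Alternatives covered the pseudocount, the count minimum, variance moderation, scaling, each pair left out, and each library set alone. The genes named are the 10 genes, the family members of their relatives and those of each list that passed in either model, and for each of the 10 genes the 3 most like it. Genes named beyond these, among them unadjusted passes and ligand genes, were chosen after their values were seen. The 10 genes and all lists were chosen with earlier results of these data known.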

Additional observations from a re-analysis of the deposited data

Results flagged for a closer look

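Control 3 stood apart from the other 5 controls for 3 of the 10 genes. Its Dusp6 value of 3656 normalized counts had 2164 as its nearest neighbor, a gap of 0.747 of the group's range. Its Etv5 value of 1545 had 706 as its nearest neighbor (0.772 of the range), and its Etv4 value of 671 had 391 (0.693 of the range). Each ratio exceeds Dixon's 95% critical value for 6 samples. In all, 20 groups (10 genes in 2 groups of dishes) were screened, and chance alone marks about 1 in 20. The 3 flags fall on 1 dish and on genes that vary together (r from 0.76 to 0.88), so they are not independent. Normalized counts of both library sets were screened together, not log2 values. Without pair 3, the mean log2 difference was higher after ablation for 8 of the 10 genes, with a median of 0.14, where it was 7 of 10 with a median of 0.08 over all pairs. Leaving out other pairs moved it the other way, to 6 of 10 with a median of 0.03 without pair 6 and 5 of 10 with 0.04 without pair 7.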

How the results depend on the processing

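The number of all tested genes called, 0 in the library set model, was 3 with no count minimum. With the replicate block it was 150, and 150 with a pseudocount of 0.5, 158 with 5, 356 with no minimum, 151 with TMM scaling, 168 with quantile normalization and 0 with plain eBayes. It was 16 within library set 1 and 109 within set 2. On recovered reads it was 3 with edgeR in 4 pairs and 11 with DESeq2 in 9 libraries, and 0 with edgeR in 9 libraries (809 at an unadjusted p under 0.05). Leaving out each pair gave 0 to 0 in the library set model and 8 to 176 with the replicate block (176, 90, 8, 77, 106 and 140 without pairs 1, 3, 4, 5, 6 and 7).

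Of the ERK feedback genes, 0 were called in the library set model and 1 (Dusp4) with the replicate block, also with a pseudocount of 0.5 or 5, no minimum, TMM or quantile scaling. Leaving out each pair gave 0 to 0 without the block and 0 to 1 with it. Within set 2, 2 were called. Directions turned for genes near 0 or bound to a set. Within set 1, Dusp6 (-0.058), Spry1 (-0.13), Spry4 (-0.28), Spred1 (-0.065) and Etv4 (-0.12) were below 0, and within set 2 Spred2 (0.050) and Etv5 (0.17) were above. On recovered reads of 9 libraries, Spry4 was at -0.095 (edgeR) and -0.091 (DESeq2), Etv4 at -0.17 and -0.16, and Spred2 at 0.0098 and 0.014. These 9 libraries include control 3 without its partner, ablation 3. In the 4 complete pairs, edgeR gave 0.15 for Spry4 and 0.052 for Etv4, the signs of the main fit. In the same 4 pairs Spred2 was at 0.092 and Etv5 at 0.024, against the signs of the main fit. The cause of these turns was not tested. With or without the block, leaving out each pair moved Spred1 from -0.018 to 0.047 (-0.018 without pair 6, -0.016 without pair 7), Spred2 from -0.037 to 0.038 (0.038 without pair 3, 0.032 without pair 4) and Etv4 from -0.018 to 0.075 (-0.018 without pair 4, -0.017 without pair 7). The other genes kept their sign, from 0.17 to 0.41 for Dusp6, 0.18 to 0.39 for Dusp5, 0.09 to 0.24 for Spry1, 0.06 to 0.41 for Spry4 and -0.19 to -0.02 for Etv5. Dusp4, Dusp5 and Spry2 kept their direction in each of the 30 alternative settings. The exact test planned for genes under the count minimum was not run, since no member was under it. Depth limits Spry4 most, with 43.3 to 121.8 normalized counts per dish.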
